A study of Mus musculus with 12 samples.

Results

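The 39 genes described here encode proteins that copy DNA or carry a cell through mitosis, with the cyclins that open the cycle. They were taken as a fixed list of names, chosen with earlier results of these data known. The list held 16 genes of DNA replication, 19 genes of mitosis and 4 D-type and E-type cyclins. All 39 had an identifier among the 49671 genes in the files, and all 39 were among the 18022 genes that passed the filter on low counts. None of the 39 was at 0 in any library. Bulk RNAseq was carried out on cranial motor neurons of mouse embryos, from the oculomotor nucleus (cMN3), the trochlear nucleus (cMN4) and the facial nucleus (cMN7). The cells were live, GFP-positive and sorted by FACS from Isl1-MN:GFP embryos, labelled WILDTYPE in genotype, at embryonic day e10.5 or e11.5, in 6 groups of 2 libraries named A and B. All groups carried this reporter, in which an Isl1 motor neuron enhancer drives GFP, and cells from several litters were merged in each library, from C57BL/6J females mated to 129S1/C57BL/6J males. No treatment was given. Libraries of e10.5 were made with whole-transcriptome amplification and those of e11.5 from mRNA selected on oligo-dT beads. With the e11.5 preparation the paper also describes removal of ribosomal RNA and beta-globin mRNA. Age and preparation therefore cannot be told apart.

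Motor neurons are post-mitotic: their progenitors divide in the ventricular zone, leave the cell cycle and then switch on Isl1 and the motor neuron programme. In a dividing cell the MCM helicase is loaded onto origins in G1 and fires in S phase. Transcripts of the mitotic machinery then peak in G2 and M. D-type and E-type cyclins act earlier, as partners of the kinases that inactivate the Rb protein and release E2F, the factor that switches on replication genes. Mitotic genes are known to be repressed in resting cells through a promoter element, the cell cycle homology region (CHR). Their promoters often hold a CCAAT box as well.

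Promoter windows of 300 bases, from 250 before to 50 after each start site, were found in RefSeq (GRCm38.p6) for 13 replication genes (15 windows), 16 mitosis genes (16 windows) and Ccne1. Each was searched on both strands for a CCAAT box (CCAAT), a CHR (TTTGAA or TTCGAA) and an E2F motif (TTTCCCGC, TTTCGCGC, TTTGCCGC or TTTGGCGC), and matches that overlapped were counted separately. A CHR was in 75% of mitosis windows, 20% of replication windows and 19.2% of all 32851 windows of that length. A CCAAT box was in 87.5%, 80% and 37.4%, and both elements together in 75%, 20% and 7.52%. The E2F motif had the opposite distribution, with 6.25% of mitosis windows, 46.7% of replication windows and 2.26% of all windows. Ccne1 had none of the 3 in its window. These are matches of letters, given as a description. The 200 bases before the RefSeq start site are shown for 5 mitosis genes and 3 replication genes, as chosen examples. Each mitosis gene shown held a CHR, beside 75% of mitosis windows. Each replication gene shown held an E2F motif, beside 46.7% of replication windows. All 8 transcripts, like all 39, were higher in replicate B than in A of cMN4 at e11.5, described below. Capitals mark every motif that lay wholly within the stretch, and each sequence is written along the strand of its gene.
Top2a, chr11:99024190-99024389, minus strand: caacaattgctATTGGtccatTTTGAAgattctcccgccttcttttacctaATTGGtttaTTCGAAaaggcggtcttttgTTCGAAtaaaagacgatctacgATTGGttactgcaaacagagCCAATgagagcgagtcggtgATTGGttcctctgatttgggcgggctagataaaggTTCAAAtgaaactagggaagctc
Cdk1, chr10:69352913-69353112, minus strand: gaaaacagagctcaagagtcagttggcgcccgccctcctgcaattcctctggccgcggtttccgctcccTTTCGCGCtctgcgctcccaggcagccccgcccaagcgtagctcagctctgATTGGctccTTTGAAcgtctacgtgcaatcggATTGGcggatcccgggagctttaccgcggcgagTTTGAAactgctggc
Cdc20, chr4:118437344-118437543, minus strand: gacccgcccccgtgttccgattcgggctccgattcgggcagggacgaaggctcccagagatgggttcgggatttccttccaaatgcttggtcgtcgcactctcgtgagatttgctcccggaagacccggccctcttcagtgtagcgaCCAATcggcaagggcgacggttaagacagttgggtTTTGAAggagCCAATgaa
Ube2c, chr2:164769729-164769928, plus strand: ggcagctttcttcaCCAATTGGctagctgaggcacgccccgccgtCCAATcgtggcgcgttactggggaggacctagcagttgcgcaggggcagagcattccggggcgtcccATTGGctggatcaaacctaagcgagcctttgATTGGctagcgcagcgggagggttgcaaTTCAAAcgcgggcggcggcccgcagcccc
Mki67, chr7:135716380-135716579, minus strand: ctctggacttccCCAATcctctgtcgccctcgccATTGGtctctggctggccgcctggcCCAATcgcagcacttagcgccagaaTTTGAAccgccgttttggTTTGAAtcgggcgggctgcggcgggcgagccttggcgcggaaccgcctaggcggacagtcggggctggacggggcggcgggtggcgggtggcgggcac
Mcm5, chr8:75109309-75109508, plus strand: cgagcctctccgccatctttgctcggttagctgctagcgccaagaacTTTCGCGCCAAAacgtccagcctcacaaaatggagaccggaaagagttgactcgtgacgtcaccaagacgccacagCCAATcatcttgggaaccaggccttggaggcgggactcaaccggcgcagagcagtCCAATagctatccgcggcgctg
Mcm6, chr1:128359706-128359905, minus strand: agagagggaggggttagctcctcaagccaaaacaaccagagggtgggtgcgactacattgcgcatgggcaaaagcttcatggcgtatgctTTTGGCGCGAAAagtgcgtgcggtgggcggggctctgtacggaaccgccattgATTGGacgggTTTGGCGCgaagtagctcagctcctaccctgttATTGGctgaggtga
Cdc6, chr11:98907951-98908150, plus strand: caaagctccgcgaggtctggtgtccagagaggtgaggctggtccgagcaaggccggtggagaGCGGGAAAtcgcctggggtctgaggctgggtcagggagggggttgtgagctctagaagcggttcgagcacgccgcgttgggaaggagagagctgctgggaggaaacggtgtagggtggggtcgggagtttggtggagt
The Top2a stretch held 5 CCAAT boxes and 4 CHR matches, and that of Cdk1 held 2 of each with 1 E2F motif. Cdc20 had 2 CCAAT boxes and 1 CHR, Ube2c 5 and 1, and Mki67 3 and 2. Mcm5 and Mcm6 each had 2 CCAAT boxes and no CHR, with 2 and 3 E2F motifs, and Cdc6 had a single E2F motif. In the GENCODE annotation Cdc6 spans chr11:98907801-98923940 on the plus strand, so its stretch lies within the gene there. The ends of the Ube2c, Cdk1 and Cdc20 stretches also lie within genes, which start there at chr2:164769898, chr10:69352938 and chr4:118437352. Those ends hold the CHR of Ube2c, the last CHR of Cdk1 and the last CCAAT box of Cdc20. The E2F matches of Mcm5 overlapped each other, as did a pair in Mcm6.

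Total estimated counts ran from 13991802 to 21464350 in the e10.5 libraries and from 21938601 to 30536210 in those of e11.5, the largest being cMN4 e11.5 replicate B. Isl1 was between 377.4 and 694.1 CPM in all 12 libraries, where CPM is a count relative to the library total after TMM scaling. Tbx20, a transcription factor of facial motor neurons, was between 597.4 and 1594.7 CPM in the cMN7 libraries and at most 24.6 CPM in the others. The 39 genes took 0.0594 to 0.0952% of all counts in 11 libraries and 0.268% in cMN4 e11.5 replicate B. That library stood apart on these genes, so results that include it are given with and without it. It was picked out by its levels of these same genes, so counts and p-values without it depend on that choice. Replicates were separate samples pooled over litters.

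The level of the replication genes, as TPM summed over the 16, ranged from 282.7 to 451.4 in 11 libraries and was 984.7 in cMN4 e11.5 B. For the 19 mitosis genes the sum was 71.3 to 210.9 TPM in the 11 libraries and 831.1 in cMN4 e11.5 B. TPM corrects for gene length, and is used here wherever levels of different genes are compared. The lowest sum of mitosis genes was in cMN3 e11.5 A, at 71.3, against 140.0 in its partner B. The cMN4 A library was at 153.4, above the cMN3 pair and the cMN7 pair, which lay at 122.3 and 143.5. Between genes, Mcm7 was the highest by median over the 12 libraries (99.4 TPM), followed by Pcna (54.8 TPM) and Rrm1 (47.8 TPM). Cdc6, at 1.46 TPM, was the lowest. In the mitosis group Top2a was the highest by median (19.7 TPM) and Cenpe the lowest (3.54 TPM).

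**Figure D1:**
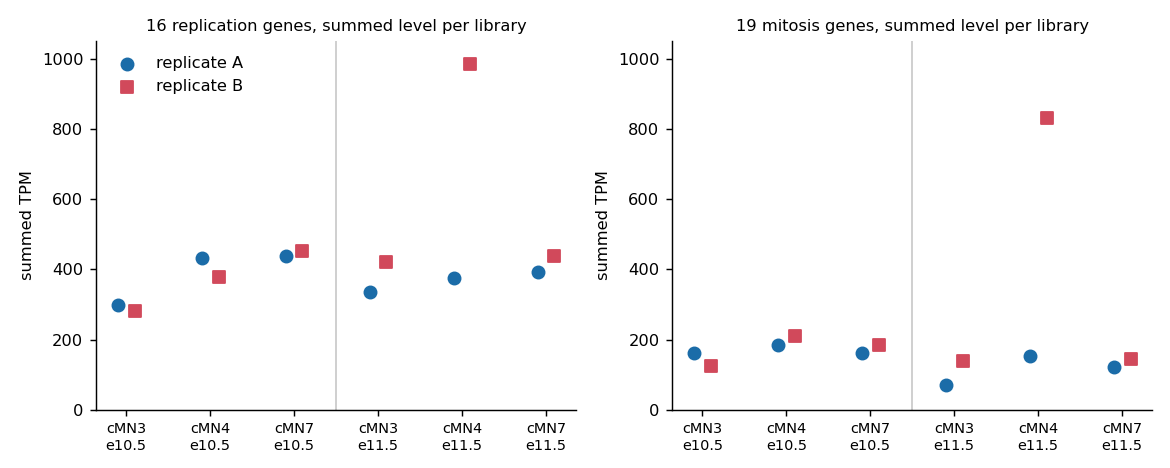
Summed TPM of the 16 replication genes (left) and the 19 mitosis genes (right) in each library, by group on the x axis. Circles are replicate A and squares replicate B. The cMN4 e11.5 B library, at 984.7 and 831.1 TPM, lies above the other 11 libraries in both panels.

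All 39 genes were higher in replicate B than in replicate A of cMN4 at e11.5. The median log2 ratio of A to B was −2.29 over the mitosis genes (range −2.86 to −1.65) and −1.53 over the replication genes (range −2.76 to −0.38). Over all genes tested the median was −0.01 with an SD of 0.52, and 50.8% were higher in B. On the TPM scale the 39 were again all higher in B, beside 61.2% of all genes. This compares 1 library with another, so no test applies. Against the median of the other 5 e11.5 libraries, the B library was higher by a median of 2.44 on the log2 scale over the mitosis genes and 1.31 over the replication genes. It was the highest of the 6 e11.5 libraries for 19 of 19 mitosis genes and 15 of 16 replication genes, as it was for 20.2% of all genes. For 35 of the 39 it was also the highest of all 12 libraries.

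The pair of markers most used for dividing cells shows the size of this gap. Mki67, a protein that coats mitotic chromosomes, was at 24.2 CPM in cMN4 e11.5 A and 176.5 in B. In the cMN3 and cMN7 libraries of that age it was at 9.89 and 23.6, and at 12.2 and 25.5. Top2a, the topoisomerase that disentangles sister chromatids, was at 29.6 and 204.9 CPM in cMN4 A and B, at 12.5 and 27.2 in cMN3, and at 17.9 and 28.3 in cMN7. For both genes the cMN4 A library lay close to the B libraries of cMN3 and cMN7, and the cMN4 B library far above all 5. The mitotic kinase Cdk1 was at 3.92 CPM in A and 20.3 in B, and did not exceed 4.62 CPM in any of the other 11 libraries. Its cyclin partners Ccnb1, Ccnb2 and Ccna2 were at 9.61, 3.92 and 10.4 CPM in A and at 56.3, 16.9 and 52.6 CPM in B. The ratio of the B library to the median of the other 5 was 5.97 for Cdk1, 6.71 for Ccnb1, 5.03 for Ccnb2 and 5.24 for Ccna2. The kinase and its partners thus differed by similar factors.

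Genes that act on the spindle, the centromere and the exit from mitosis were higher in the same library. Bub1 and Bub1b, of the spindle checkpoint, were 7.26 and 5.35 times the median of the other 5 e11.5 libraries. The centromere and kinetochore genes Cenpe and Cenpf were each 6.96 times that median, and the centromeric histone Cenpa 4.17 times. Tpx2 and Nusap1, which organise spindle microtubules, were 5.64 and 6.14 times it. Aurkb and Birc5, subunits of the chromosomal passenger complex, were 5.22 and 5.44 times the median, and Plk1, a kinase of mitotic entry and exit, 4.92 times. Cdc20, an activator of the anaphase-promoting complex, was at 8.51 CPM in cMN4 A and 34.4 in B, and Ube2c, the ubiquitin-conjugating enzyme of that complex, at 4.47 and 19.4. Aurka, a spindle pole kinase, had the smallest ratio of the 19, at 3.19. All 19 ratios therefore lay between 3.19 and 7.41.

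The replication genes were more uneven in this library. Mcm3, a subunit of the MCM helicase, was at 6.16 CPM in cMN4 e11.5 A and 44.7 in B, which was 6.93 times the median of the other 5 e11.5 libraries. The other subunits differed less, from 3.28 times for Mcm4 and 3.16 for Mcm5 to 2.49 for Mcm6, 1.71 for Mcm2 and 1.61 for Mcm7. Cdc6, which loads the helicase onto origins, was at 1.96 and 12.2 CPM, and its ratio was 5.99. Rrm2, the regulated subunit of ribonucleotide reductase, was 5.07 times the median while Rrm1, the large subunit, was 1.83 times. Cdc45, which activates the helicase, was at 4.27 times, Uhrf1, which directs methylation of newly copied DNA, at 2.97, the sliding clamp Pcna at 2.48 and the helicase loader Cdt1 at 2.43. Tyms, which makes thymidylate, was at 2.28. The GINS subunits Gins1 and Gins2 were at 1.65 and 1.61, and Gins2, at 57.0 CPM, was the single gene of the 39 for which another e11.5 library was higher (58.2 CPM in cMN7 A). Mcm3, Cdc6, Rrm2, Cdc45 and Mcm4 thus lay within the range of the mitosis genes, and the other replication genes below it.

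Markers of other cell types were read in the same pair of libraries. Of 20 neural progenitor genes, 15 were higher in cMN4 e11.5 B than in A, with a median log2 A to B ratio of −0.95, and their summed level was 1377.5 TPM in A and 2192.9 in B, with 1122.7 to 2192.9 TPM in the cMN3 and cMN7 libraries and those of cMN4 at e10.5. The progenitor factor Hes1 was at 4.83 and 15.5 CPM, beside 0.978 to 2.07 CPM in cMN3 and cMN7 of e11.5, while Sox1 was at 96.9 and 75.5. All 10 motor neuron genes and 13 of 15 post-mitotic neuron genes were higher in A, with median log2 ratios of 0.50 and 0.27. Of 10 erythroid genes tested, 10, 8 and 10 were higher in the B library of cMN3, cMN4 and cMN7 at e11.5. The summed TPM of the list was 154.8, 188.7 and 295.1 in the A libraries of these nuclei and 630.5, 412.6 and 663.6 in B. These sums include globin genes and were taken after removal of beta-globin mRNA, whose extent in each library was not tested. Endothelial, microglial and muscle progenitor lists summed to at most 11.4 TPM in the e11.5 libraries, mesenchyme to at most 28.1 and neural crest and glia to at most 30.6. The part that any of these cells had in the levels of the 39 genes was not tested. In bulk samples more dividing cells and more transcript per dividing cell cannot be told apart.

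Outside the 39, 56 further mitosis genes and 48 further replication genes were read as fixed lists, also chosen with earlier results of these data known. In cMN4 at e11.5, 55 of the 56 and 47 of the 48 were higher in B, with median log2 A to B ratios of −1.91 and −0.78. A list of 4 genes of G1 kinases and their partners had all 4 higher in B, with a median log2 A to B ratio of −0.66. Of 17 E2F and Rb regulators, 15 were higher in B and 2 in A, with a median of −0.41. The lowest ratios of these lists, −2.10 and −2.22, were those of Cdk2 and E2f8. The kinase partner Cdk2 was at 3.88 CPM in A and 18.3 in B, and E2f8, an E2F repressor, at 2.35 and 12.8. Of 9 CDK inhibitors and genes of cell cycle exit, 5 were higher in A and 4 in B, with a median log2 A to B ratio of 0.11. Among those higher in A was Cdkn1c, a CDK inhibitor, at 106.6 CPM in A and 57.0 in B.

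**Figure D2:**
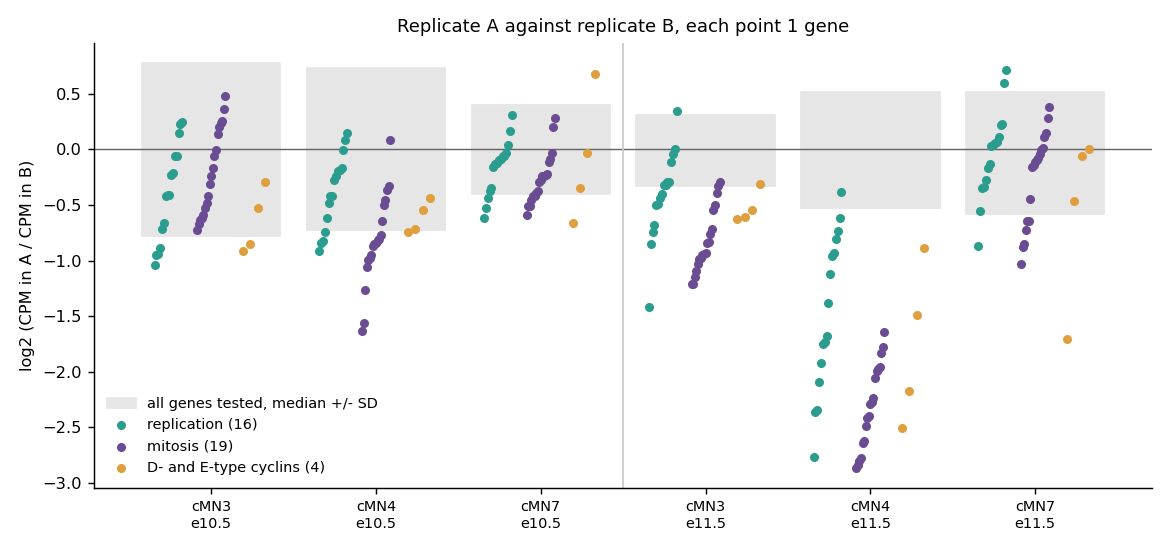
The log2 ratio of CPM in replicate A to replicate B (y axis) for each of the 39 genes, by group, coloured by role, with 0.5 CPM added to each value. Grey boxes span the median ± SD over all 18022 genes tested. In cMN4 at e11.5 all 39 points are below 0 and the 19 mitosis genes lie between −2.86 and −1.65.

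The cMN3 pair at e11.5 differed in the same direction by less. There 37 of the 39 genes were higher in B, including 19 of 19 mitosis genes with a median log2 A to B ratio of −0.93, and 51.5% of all genes were. On the TPM scale 38 of 39 were higher in B, beside 60.7% of all genes. In cMN7 at e11.5, 24 of 39 were higher in B in CPM and 28 in TPM, with 52.3% and 65.6% of all genes. At e10.5 the genes higher in B were 30, 36 and 33 of 39 for cMN3, cMN4 and cMN7 in CPM and 16, 21 and 29 in TPM. At that age the all-gene share higher in B was 45.7, 47.2 and 50% in CPM and 23.2, 22.3 and 42.3% in TPM, so TPM moved all genes towards A. The median log2 A to B ratio of the 39 on log2(TPM + 1) was 0.10, −0.04 and −0.20, against 0.34, 0.40 and 0.04 over all genes, so in each pair the 39 lay nearer to B than all genes did.

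Whether the nuclei differ in these genes was asked first between the midbrain and isthmus nuclei (cMN3 and cMN4 together) and cMN7. Ccnd2 and Ccnd1 were the genes that passed the test (edgeR quasi-likelihood, Benjamini-Hochberg adjusted p under 0.05 over all genes tested). D-type cyclins bind Cdk4 and Cdk6 and carry growth signals into the cycle, and neurons are known to keep D-type cyclins after division has stopped. At e10.5 Ccnd2 was at 243.5 and 350.5 CPM in cMN3, at 71.7 and 120.5 in cMN4 and at 21.7 and 34.5 in cMN7. The 3 nuclei did not overlap, with cMN3 highest and cMN7 lowest. Ccnd2 was higher in cMN3/4 by 2.59 on the log2 scale (SE 0.67, edgeR adjusted p = 0.0301), 1 of 39 genes, beside 5.33% of all genes called higher. Ccnd1 had the reverse order, at 16.4 and 30 CPM in cMN3, 35.5 and 58.8 in cMN4 and 99.7 and 101.7 in cMN7. It was lower in cMN3/4 by a log2 change of −1.61 (SE 0.45, edgeR adjusted p = 0.0407), 1 of 39, beside 6.16% of all genes called lower. Neither share exceeded that of all genes.

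Both calls of e10.5 were lost when any of several libraries was left out. The Ccnd2 call was lost without cMN3 e10.5 B, cMN4 e10.5 B or either cMN7 e10.5 library, with log2 changes of 2.42, 2.37, 2.28 and 2.95, and that of Ccnd1 without cMN3 e10.5 A or any of the cMN4 and cMN7 libraries of e10.5, with changes between −1.82 and −1.43. With cMN4 alone against cMN7 the changes were 1.77 and −1.10, with adjusted p of 0.190 and 0.306 (edgeR).

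At e11.5 Ccnd2 was at 88.9 and 137.8 CPM in cMN3, at 30.1 and 173.1 in cMN4 and at 4.26 and 14.99 in cMN7. The cMN7 libraries were again the lowest, while the cMN4 B library was above both of cMN3. Ccnd2 was higher in cMN3/4 by 3.47 on the log2 scale (SE 0.71, edgeR adjusted p = 0.0135), and 2.26% of all genes were called higher. Without cMN4 e11.5 B the difference was 2.60 (adjusted p = 0.00702, edgeR), again the 1 gene of 39 called higher, beside 1.78% of all genes. Without cMN4 e11.5 A, 7 of the 39 were called higher (Ccnd2, Cenpf, Mcm6, Mki67, Rrm2, Top2a and Tpx2), beside 2.12% of all genes, with cMN4 then represented by its B library alone. The call of Ccnd2 was lost without cMN7 e11.5 A (log2 change 2.85, edgeR adjusted p = 0.120) and with the libraries of e11.5 alone in the fit (3.47, adjusted p = 0.105). No gene of the 39 was called lower at e11.5 by edgeR, DESeq2 or limma, none had an unadjusted edgeR p under 0.05 in that direction, and 2.71% of all genes were called lower.

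Ccnd1 at e11.5 was at 18.4 and 27.1 CPM in cMN3, 23.2 and 106.6 in cMN4 and 31.4 and 43.5 in cMN7. The cMN7 libraries overlapped the others through cMN4 B alone, and the log2 change of cMN3/4 over cMN7 was 0.04 with that library and −0.70 without it (edgeR adjusted p = 0.386). Whether the nucleus difference changed with age was tested as an interaction. For Ccnd1 it was 1.65 on the log2 scale (SE 0.66, edgeR adjusted p = 0.312) and for Ccnd2 0.89 (SE 0.85, adjusted p = 0.721, edgeR). No gene of the 39 passed that test by edgeR, DESeq2 or limma in either direction, with 1 gene (Ccnd1) past an unadjusted edgeR p of 0.05 upwards and 0 downwards. Of all genes 0.311% were called higher and 0.444% lower. Without cMN4 e11.5 A the interaction of Ccnd1 was 2.03 and was called (edgeR adjusted p = 0.0427), and without cMN4 e11.5 B it was 0.92 (edgeR adjusted p = 0.446).

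The E-type cyclins Ccne1 and Ccne2, partners of Cdk2 at the start of S phase, were low throughout, at 2.17 to 10.4 CPM and 3.50 to 12.6 CPM, and with all 12 libraries were not called in any of the 6 comparisons. In the GRCm38 annotation Ccnd2 (chr6:127125162-127152193, minus strand) overlaps the antisense genes Gm43126 and 9330179D12Rik, and no source used here states whether reads were counted by strand. Only the spans of genes were compared, and overlap of their exons was not examined. Reads counted for Ccnd2 may therefore include reads of those genes. The same holds for Ccnd1 with LTO1, Ccne2 with Ints8, Mki67 with Gm45240 and Cenpf with Gm37239, which also lie on opposite strands. It holds too for Mcm7 with Cops6 and Ap4m1, Cdc45 with Ufd1, Ccna2 with Exosc9 and Cdc20 with Elovl1. Ube2c with Tnnc2, Nusap1 with Oip5, Plk1 with Gm44985 and Top2a with Gm26394 overlap on opposite strands as well, so all these levels carry the same doubt.

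**Figure D3:**
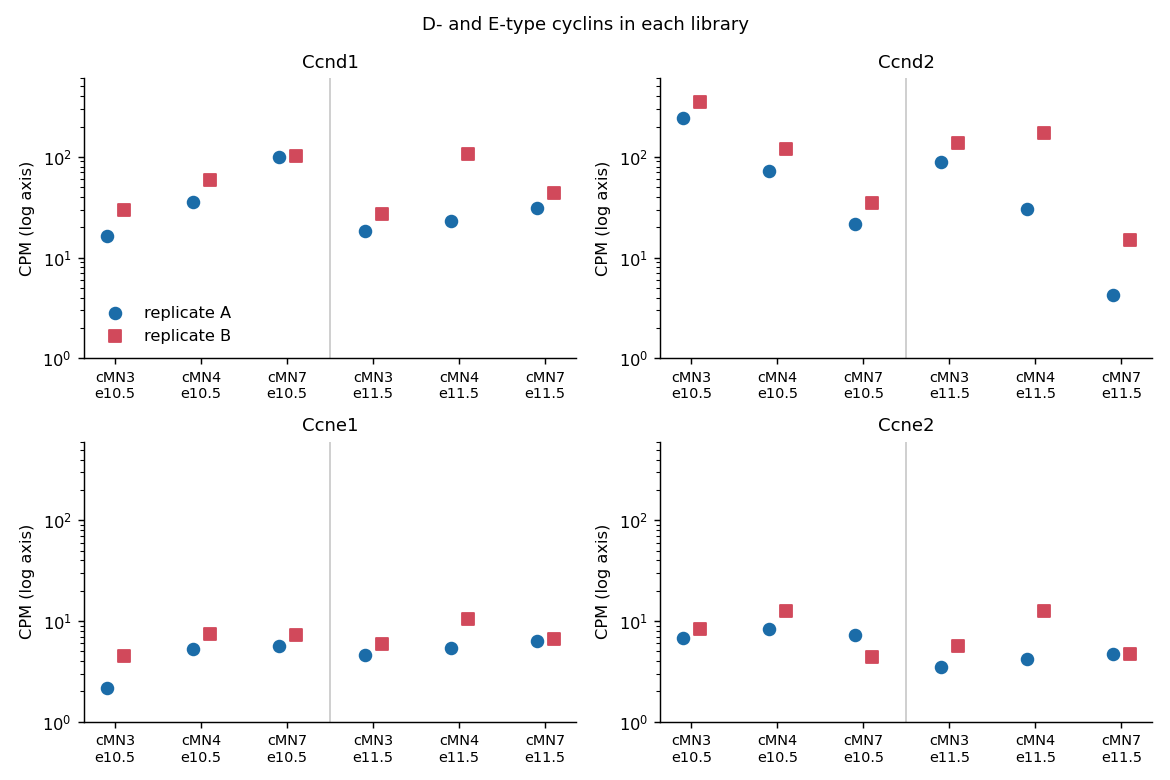
CPM (log axis) of Ccnd1, Ccnd2, Ccne1 and Ccne2 in each library, by group, with circles for replicate A and squares for replicate B. At e10.5 Ccnd2 goes from 243.5 and 350.5 CPM in cMN3 to 21.7 and 34.5 in cMN7 while Ccnd1 takes the reverse order. At e11.5 the cMN4 B library is the highest of its age for all 4 genes.

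None of the replication and mitosis genes passed the test between cMN3/4 and cMN7 at either age with all 12 libraries. Mcm6 at e10.5 had a log2 change of 0.63 (edgeR adjusted p = 0.288), and was called when cMN4 e11.5 A or B was left out (adjusted p = 0.0326 and 0.0354, edgeR). At e10.5 the 19 mitosis genes all had positive log2 changes, with a median of 0.34 and a range of 0.04 to 0.68, beside a median of −0.05 over all genes tested. With TPM in place of TMM-scaled counts the all-gene median moved to −0.38 and that of the mitosis genes to −0.12, with 8 of 19 positive. Relative to the all-gene median the mitosis genes were at 0.39 with TMM-scaled counts and 0.26 with TPM. At e11.5 the median of the mitosis genes was 0.83, with 19 of 19 positive. Without cMN4 e11.5 B it was −0.07, with 8 of 19 positive. The replication genes had medians of 0.30 at both ages, and of −0.24 at e11.5 without cMN4 e11.5 B. Of the 56 further mitosis genes, 1 was called higher at each age (Cenpk by 2.52 at e10.5 and Cdc25b by 1.05 at e11.5), and of the 48 further replication genes 1 was called at e10.5 (Dut, which clears dUTP, higher by 1.41).

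The oculomotor and trochlear nuclei were compared next. At e10.5 no gene of the 39 was called by edgeR, DESeq2 or limma, with 1 gene past an unadjusted edgeR p of 0.05 in each direction, and 4.31% of all genes were called higher in cMN3 and 3.63% lower. The median log2 change was −0.13 over the mitosis genes, with 8 of 19 positive, and −0.09 over the replication genes. Ccnd2 had the largest change, 1.63 (SE 0.69, edgeR adjusted p = 0.173). With the replicate letter as a block at e11.5, an alternative chosen after seeing the data, it was the 1 gene called higher (adjusted p = 0.0195, edgeR), beside 6.71% of all genes. Among the fixed lists the CDK inhibitor Cdkn1c was 2.27 higher in cMN3 (edgeR adjusted p = 0.00262), at 512.2 and 503.9 CPM in cMN3 and 92.9 and 118.3 in cMN4. It was the 1 gene called of the 9 CDK inhibitors and exit genes, with 7 changes positive and 2 negative. The progenitor gene Hes5 was lower in cMN3 by a log2 change of −2.58 (adjusted p = 0.0185, edgeR), at 1.11 and 1.30 CPM against 4.92 and 9.53. Of the 20 progenitor genes 1 was called higher in cMN3 and 2 lower. The list had 11 positive and 9 negative changes, with a median of 0.05.

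At e11.5 every replication and mitosis gene had a negative log2 change, lower in cMN3 than in cMN4, and none of the 39 was called. The median was −2.21 over the mitosis genes (range −2.58 for Mki67 to −1.34 for Aurka) and −0.95 over the replication genes (range −2.39 for Mcm3 to −0.24 for Gins2), with 0.02 over all genes tested. The smallest adjusted p were 0.0531 for Cdt1 (log2 change −1.40, SE 0.32) and 0.0541 for Plk1 (−2.26, SE 0.52), by edgeR. At an unadjusted edgeR p under 0.05, 32 of the 39 were lower and 0 higher. DESeq2 called 15 of 39 lower, beside 2.52% of all genes, and limma on log2(TPM + 1) called 0. By edgeR 1.06% of all genes were called higher and 0.793% lower.

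Most of these negative values moved towards 0 without the cMN4 e11.5 B library. Without it the median was −0.51 over the mitosis genes (range −1.05 to −0.14) and −0.10 over the replication genes, with 0 of 39 called lower beside 0.471% of all genes. The lowest values in that fit were those of Cdt1 and Plk1, with log2 changes of −1.18 and −1.05. Without cMN4 e11.5 A instead, 31 of 39 were called lower (19 of 19 mitosis genes and 11 of 16 replication genes), beside 1.63% of all genes. In that fit cMN4 at e11.5 is a single library, assumed to vary like the other groups. Leaving out another library gave at most 1 gene, which was called lower without cMN3 e10.5 A or B or without cMN7 e11.5 A or B. In those fits 0.806, 0.827, 1.11 and 1.1% of all genes were called lower. The labels do not say what libraries of the same letter share, but at e11.5 these deviated together from their group means. The letter was therefore used as a block at that age, an alternative chosen after seeing the data. With it, 10 of 39 were called lower (9 mitosis genes and 1 replication gene), beside 1.56% of all genes, and the median of the mitosis genes was −2.03. None of the 48 and 56 further replication and mitosis genes was called by edgeR, and 45 and 55 of them had negative changes. The G1 kinase Cdk6 was lower in cMN3 by a log2 change of −2.26 (edgeR adjusted p = 0.0360). Of the 4 genes of G1 kinases and their partners it was the 1 called, with 1 change positive and 3 negative. Cdkn1c was higher by 2.31 (adjusted p = 0.00278, edgeR), at 478.4 and 332.3 CPM in cMN3 against 106.6 and 57.0 in cMN4. Of the 9 CDK inhibitors and exit genes it was the 1 called, with 5 changes positive and 4 negative.

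**Figure D4:**
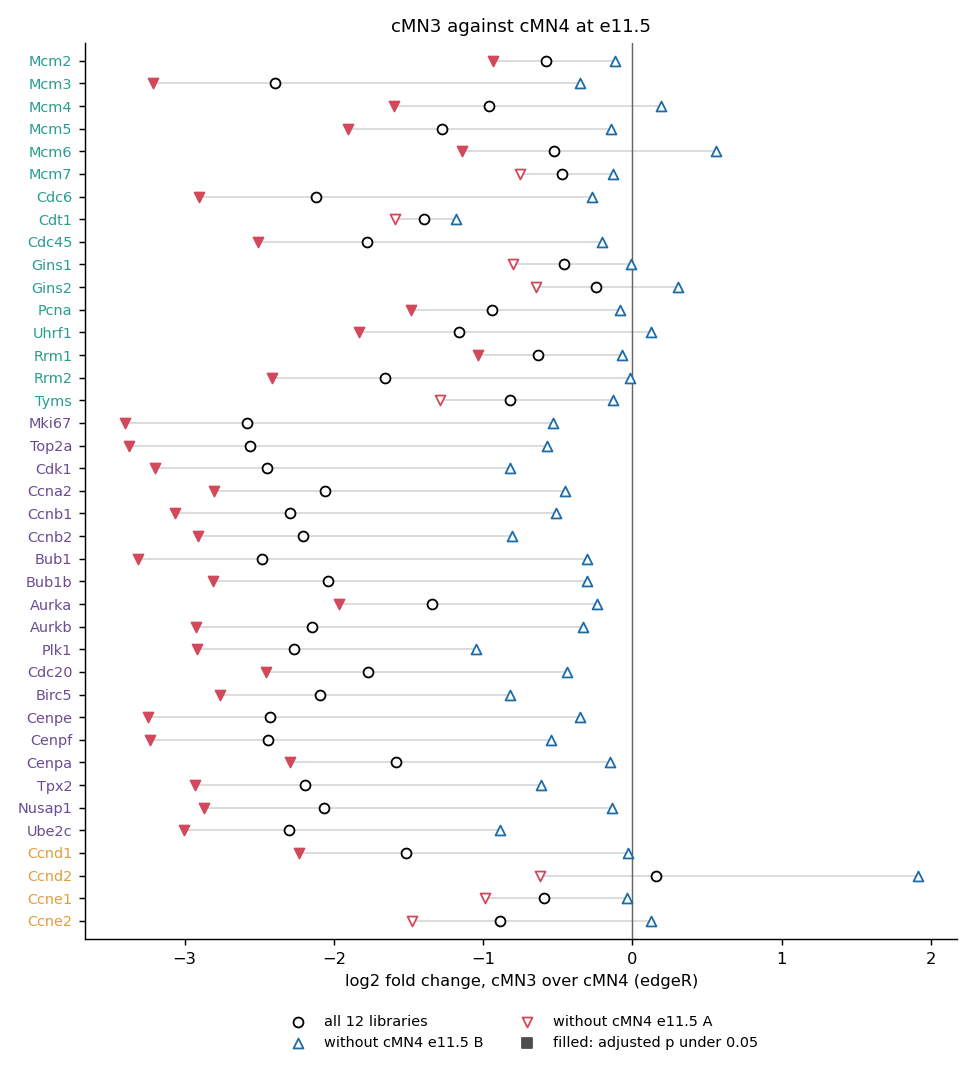
The log2 change of cMN3 over cMN4 at e11.5 (x axis, edgeR) for each of the 39 genes, with all 12 libraries (circles), without cMN4 e11.5 B (upward triangles) and without cMN4 e11.5 A (downward triangles). Filled symbols passed an adjusted p of 0.05. The mitosis genes lie between −2.58 and −1.34 with all libraries and between −1.05 and −0.14 without the B library, where none is filled.

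Between the ages, averaged over the 3 nuclei, 5 of the 39 genes were called lower at e11.5 and 1 higher, beside 23.1% of all genes called lower and 26.6% higher. Both shares of the 39 were under those of all genes. The lower genes were Cenpf (log2 change −1.18), Cenpe (−1.14), Mki67 (−1.13), Cdt1 (−1.01) and Mcm2 (−0.73), with SE of 0.38, 0.40, 0.40, 0.18 and 0.14 and edgeR adjusted p of 0.0227, 0.0349, 0.0346, 0.000873 and 0.00133. Gins2 was higher by 1.14 (SE 0.21, edgeR adjusted p = 0.000908). The age difference cannot be told apart from the change of preparation. Replication-dependent histone genes, whose mRNAs mostly lack a poly(A) tail, were summed at 3064.6 to 5057.2 TPM in the e10.5 libraries and 230.7 to 458.7 TPM in those of e11.5, and 58 of 63 were called lower. Mitochondrial genes took 4.84 to 10.1% of counts in the younger libraries and 1.36 to 1.83% in the older.

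Mki67 ranged from 55.4 to 90.4 CPM at e10.5 (median 64.9) and from 9.89 to 25.5 in 5 libraries of e11.5, with cMN4 B at 176.5. Cenpf, a kinetochore protein, was at 23.3 to 52.6 CPM at e10.5 and 5.49 to 12.6 in those 5 libraries, with 80.7 in cMN4 B. Cenpe, a kinetochore motor, was at 12.6 to 29.7 and 2.82 to 8.27, with 47.5 in cMN4 B. For all 3 genes the ages overlapped through that library alone. Mcm2 was between 56.8 and 92.7 CPM in the e10.5 libraries and 29.4 and 62.4 in those of e11.5, and Cdt1 at 7.92 to 15.9 and 3.41 to 11.8, so both overlapped between the ages. Gins2 was between 11.4 and 32.5 CPM in the e10.5 libraries and 28.0 and 58.2 in those of e11.5. Gins2 (chr8:120578633-120589304) overlaps Gse1 and Gm20388 on the other strand, so reads counted for Gins2 may include theirs if strand was not used. Cdt1 (chr8:122568015-122573554) overlaps Gm20388 on its own strand, so its value is uncertain too.

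Without cMN4 e11.5 B, 18 of the 39 genes were called lower at e11.5, beside 20% of all genes, and Gins2 remained the 1 gene called higher, beside 24.1%. The 18 comprised 7 replication genes, 8 mitosis genes and Ccnd1, Ccnd2 and Ccne2. Mki67, Cenpe and Cenpf then had log2 changes of −1.79, −1.81 and −1.79, in a fit without the library that was picked out by these genes. Tpx2, Top2a and Bub1 were lower by log2 changes of −1.11, −1.18 and −1.13, and Mcm3, Mcm4 and Rrm2 by −1.24, −0.94 and −1.01. The median of the mitosis genes went from −0.24 to −0.69, with 18 of 19 negative, and that of the replication genes from −0.16 to −0.45. Without cMN3 e10.5 B, cMN3 e11.5 A, cMN4 e10.5 B, cMN7 e10.5 B or cMN7 e11.5 A the count of lower genes was 2, and without cMN4 e10.5 A it was 3. In those 6 fits 16.6 to 20.3% of all genes were called lower. The count of higher genes was 6 without cMN4 e11.5 A, 3 without cMN3 e10.5 B and 2 without cMN7 e11.5 B, beside 22.4, 25.5 and 25.3% of all genes. Mcm2, Cdt1 and Gins2 kept their calls whichever library was left out. With the letter as a block at e11.5, 13 of 39 were called lower and 2 higher, beside 25.9% and 27.9% of all genes.

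The call of lower levels depended on the scale. On log2(TPM + 1), where the all-gene median moved from 0.04 to 0.33, limma called 0 of 39 lower and 5 higher, beside 12.5% of all genes called lower and 40.8% higher, and the 5 genes named above kept negative values, with changes of −0.47 for Mcm2, −0.14 for Cdt1, −0.91 for Mki67, −0.41 for Cenpe and −0.69 for Cenpf. The median of the mitosis genes was then 0.03, which was −0.30 relative to the all-gene median, against −0.28 with TMM-scaled counts. In cMN3 alone the log2 changes of Mki67, Cenpe and Cenpf were −2.12, −2.41 and −2.01, and in cMN7 alone −1.61, −1.28 and −1.60. In cMN4 alone they were 0.33, 0.27 and 0.06 with both libraries of e11.5, and −1.69, −1.78 and −1.80 without cMN4 e11.5 B, a fit added after seeing the data. In that fit 4 of 39 genes were called lower, beside 5.38% of all genes, with cMN4 at e11.5 a single library. The further lists were read with all 12 libraries by edgeR, where 26.6% of all genes were called higher and 23.1% lower. There 10 of 48 replication genes were called higher and 1 lower, and 3 of 56 mitosis genes each way. Of 20 progenitor genes 3 were called higher and 9 lower, with Lin28a lower by a log2 change of −3.16 (edgeR adjusted p = 6.37e-07).

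**Figure D5:**
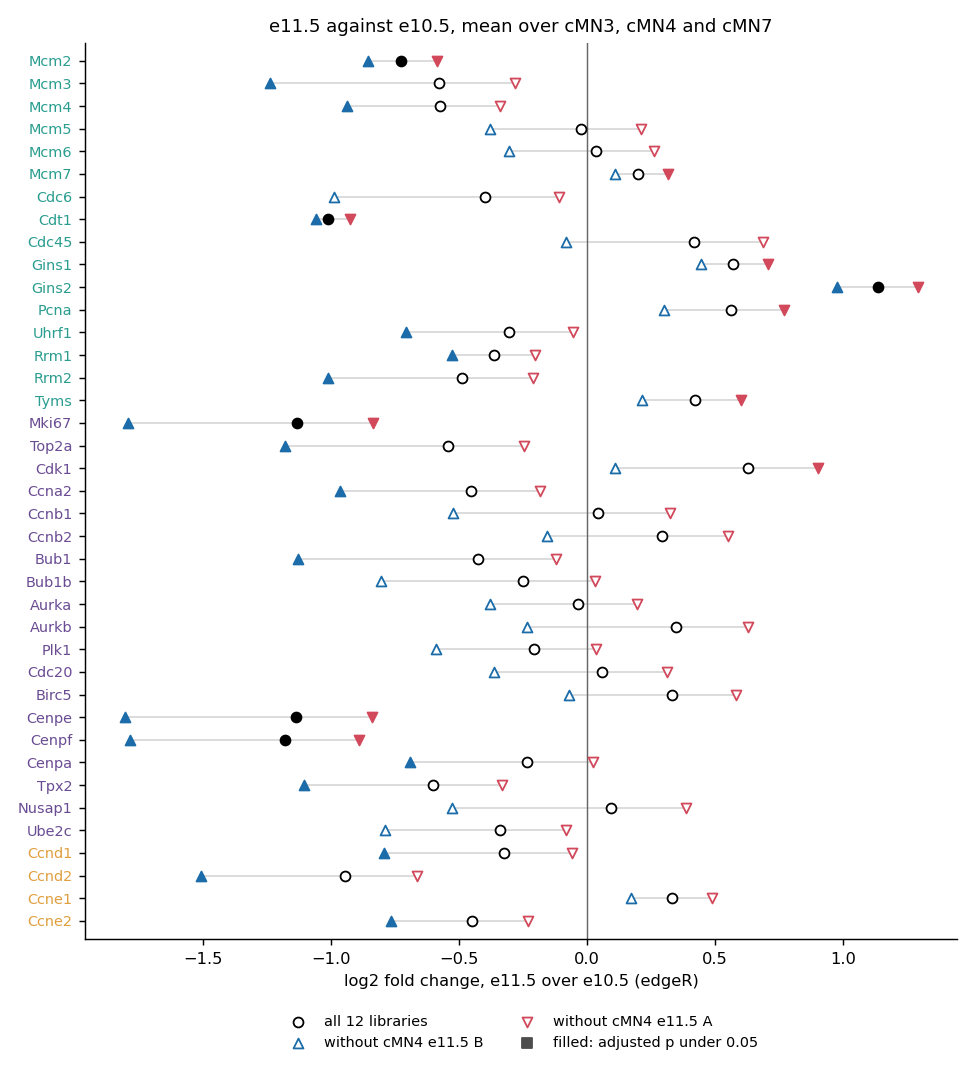
The log2 change of e11.5 over e10.5 (x axis, edgeR), averaged over the nuclei, for each of the 39 genes, with all 12 libraries (circles), without cMN4 e11.5 B (upward triangles) and without cMN4 e11.5 A (downward triangles). Filled symbols passed an adjusted p of 0.05. Without the B library 18 genes are filled to the left of 0, against 5 with all libraries.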

How the data were processed

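Bulk RNAseq was performed by the authors on GFP-positive cranial motor neurons sorted by FACS (12 libraries, 6 groups of 2). The authors aligned reads with STAR to the mouse genome (GRCm38) and deposited RSEM expected counts and TPM per gene, for 49671 genes. Preparation differed between e10.5 and e11.5, and strandedness of counting is not given in the sources used here. Expected counts were rounded and tested with edgeR 4.0.16 in R 4.3.3 (quasi-likelihood, TMM scaling, all 6 groups in 1 fit, 6 residual degrees of freedom, Benjamini-Hochberg adjusted p under 0.05). The filter (filterByExpr, minimum count 10, minimum total 15) kept 18022 genes. Ratios between libraries used CPM with 0.5 added. Alternatives were DESeq2 1.42.0, limma 3.58.1 on log2(TPM + 1) and log2(TPM + 0.1), no filter, fits within an age, 1 nucleus alone (cMN4 also without its e11.5 B library, added after seeing the data), a replicate block and leaving out each library. Total counts were 13991802 to 30536210, and precision for low genes is limited by 2 libraries per group.

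The members and gene lists were chosen with earlier results of these data known. Genes are named if they are members, overlap a member, are Isl1, or were among the 3 smallest p of a list in a comparison. The edgeR fit was also run on simulated counts, with the same spread for all genes, no library set apart and no deviation shared by replicate letter. These data differ from that setting, so the simulation does not cover them on those points. Replicate letters come from the labels. Deviations of A libraries from their group means correlated across genes at e11.5 (r = 0.508 for cMN3 with cMN4, 0.420 for cMN3 with cMN7, 0.400 for cMN4 with cMN7) and not at e10.5 (0.0561, −0.00749 and 0.0278). The letters were therefore taken to pair the libraries of e11.5 alone, in a fit added after seeing the data. Promoter sequences came from RefSeq (GRCm38.p6). Gene positions are of GRCm38 (GENCODE vM21).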

Additional observations from a re-analysis of the deposited data

How the results depend on the processing

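Over all genes, comparisons and alternatives, 4964 values of the 39 genes kept direction and side of the threshold, 208 gained a call, 50 lost one and 4 reversed. They were Mki67 (0.33), Cenpe (0.27) and Cenpf (0.062) between the ages in cMN4 alone, and Gins2 (−0.0042) in cMN4 alone without cMN4 e11.5 B, where Mki67, Cenpe and Cenpf were at −1.69, −1.78 and −1.80. Between the ages in cMN4 alone no gene was called in either direction (0 and 0), beside 10.6% of all genes higher and 9.79% lower. In cMN7 alone 2 were lower, beside 14.7% of all genes. Without the filter on low counts, 5 and 11 genes were higher in cMN3/4 than cMN7 at e10.5 and e11.5, 2 higher and 3 lower in cMN3 than cMN4 at e10.5, 29 lower at e11.5, 4 higher and 13 lower between the ages, and 3 higher in the interaction. Of all 27623 genes in that fit, 4.6 and 2.67%, 4.35 and 3.73%, 2.08%, 19.6 and 14.8%, and 1.35% were called in the same order. The cause was not tested. DESeq2 called 15 lower in cMN3 than cMN4 at e11.5, beside 2.52% of all genes. Limma called 5 higher on log2(TPM + 1), 6 on log2(TPM + 0.1) and 0 lower on both between the ages, beside 40.8 and 40.9% of all genes higher and 12.5 and 11.6% lower. With the replicate block over all libraries, within each age and at e11.5 only, 1, 1 and 1 gene was higher in cMN3 than cMN4 at e10.5, and 4, 10 and 10 were lower at e11.5. The shares of all genes were 4.53, 6.84 and 6.71%, and 1.05, 1.64 and 1.56%. Between the ages 2, 2 and 2 were higher and 8, 13 and 13 lower. There the shares of all genes were 26.8, 28.7 and 27.9% higher and 23.6, 25.2 and 25.9% lower. The block changed no other count. Libraries of e10.5 only gave 2 genes higher in cMN3/4 than cMN7, beside 7.27% of all genes. They gave 1 higher and 1 lower in cMN3 than cMN4, beside 5.77 and 4.38%. Libraries of e11.5 only gave 0 higher in cMN3/4, beside 2.02%. With cMN4 alone for cMN3/4 at e10.5 the counts were 0 and 0, beside 3.22 and 3.33%. Leaving out 1 library gave 0 to 2 higher and 0 to 1 lower for cMN3/4 against cMN7 at e10.5, 0 to 7 higher at e11.5, 0 to 31 lower for cMN3 against cMN4 at e11.5, 1 to 6 higher and 2 to 18 lower between the ages, and 0 to 1 higher in the interaction. With 2 libraries per group, and cMN4 e11.5 B apart from its partner, the spread within that group limits what could be called.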
